A study of Homo sapiens with 15 samples.

Results

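The genes described here are 42 hypoxia-inducible and glycolytic genes, 42 of the 58735 genes in the deposited tables, chosen by name for their known roles. They fall into 8 regulators of the hypoxia response, 11 targets of that response outside glycolysis, 6 genes of glucose entry and its control, 13 enzymes of glycolysis and 4 genes of pyruvate and lactate handling. RNA was sequenced from 15 libraries of HEK293T, a human embryonic kidney line that carries the SV40 large T antigen. The groups were RHBDD2-CKO, MLPH-CKO, C9orf89-CKO and MAGI2-CKO, in each of which a CRISPRv2 vector with Cas9 and a guide RNA disrupted the named gene (genotypes RHBDD2-KO, MLPH-KO, C9orf89-KO and MAGI2-KO), and Non-target, labelled WT, which received the vector with a guide that has no target. All groups were grown in the same serum-containing medium, and no group was labelled as kept in low oxygen. Each group, Non-target included, was a clone obtained by limiting dilution. Each group had 3 libraries from 3 culture wells, so the spread between wells covers culture, extraction and library preparation and not the difference between independent clones. All 4 clones were compared with the same 3 Non-target wells, so these comparisons are not independent of each other. Where 4 values follow each other without names, the first is for C9orf89-CKO, the next for MAGI2-CKO, then for MLPH-CKO, and the last for RHBDD2-CKO.

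Levels are given in FPKM, fragments scaled to the exon length of a gene and to the depth of the library, a unit worked out from the values. A library held 15517856 to 19489918 fragments on genes, with a median of 17666063. A gene was tested when it reached 0.5 FPKM in at least 3 libraries, which held for 16175 genes and for 40 of the 42 genes described here. CA9 and SLC16A3 did not reach it. Changes are log2 fold changes of FPKM + 0.1 with their standard errors from limma, a linear model fitted across all genes, and a gene was called when its p-value after Benjamini-Hochberg adjustment over all tested genes was under 0.05. In bulk RNA, fewer cells of a kind and less RNA per cell cannot be told apart.

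Cells sense oxygen through the hypoxia-inducible factors. The α subunits HIF1A and EPAS1 (HIF-2α) pair with ARNT, and in the presence of oxygen they are hydroxylated by the EGLN enzymes, bound by VHL and degraded, so that much of this control acts on the protein and not on the transcript. When stabilised, the factors bind a short element in their target genes, among them glucose transporters, most enzymes of glycolysis, lactate dehydrogenase A and PDK1, a kinase that holds pyruvate back from the mitochondria. Hypoxia signalling is also a known inducer of CXCL12, CXCR4 and EPO.

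The core letters of that element are ACGTG or GCGTG. They were searched for on both strands (CACGT and CACGC are the same letters read from the other strand, and CACGTG holds ACGTG on both) in the RefSeq promoter windows of build GRCh38.p14, each 250 bases before to 50 bases after a start of transcription. A window was found for 37 of the 42 genes, 68 windows in all. At least 1 match was in 66.2% of these windows against 48.4% of all 35116 windows of the same length. ACGTG was in 39.7% against 21.4%, whereas GCGTG was in 39.7% against 36.5%, near the share of all windows. A gene with several starts counts with several windows. The 5 genes with a window and no match in any of them were ARNT, EGLN3, HIF1AN, P4HA2 and PGAM1. The 8 stretches printed here, 30 bases each and 5′ to 3′ on the strand of the gene, are from genes with different behaviour in the clones, and the capitals mark the matches. ENO1, ENO2 and ALDOC were higher in all 4 clones, GPI was lower in 3, EPAS1 changed in both directions, ADM was lower in 1, GAPDH was called in none, and CA9 was hardly detected.
ENO1, chr1:8878742-8878771, minus strand: cggagctgaggggGCGTGccccggaggcgg
ENO2, chr12:6914449-6914478, plus strand: cacccgcgctcgtACGTGcgcctccgccgg
ALDOC, chr17:28576915-28576944, minus strand: aggcCACGCccccggaggagtCACGTagct
GPI, chr19:34364817-34364846, plus strand: aacactgcctgtaACGTGgaaggtgttcga
EPAS1, chr2:46297277-46297306, plus strand: ggggcctgccggcGCGTGcccgcccacaca
ADM, chr11:10304959-10304988, plus strand: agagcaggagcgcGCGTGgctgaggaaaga
GAPDH, chr12:6535171-6535200, plus strand: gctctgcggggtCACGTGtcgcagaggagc
CA9, chr9:35673897-35673926, plus strand: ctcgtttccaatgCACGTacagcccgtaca
In the 250 bases upstream of its start, ALDOC had 5 matches, ENO1 had 2, and ENO2, GPI, EPAS1, ADM and CA9 had 1 each. GAPDH had 2, which are the 2 strands of the CACGTG printed here and so 1 site. A match describes the letters only, and genes with a match included some that rose, some that fell and some called in no clone. Of the 5 genes without a match, ARNT, HIF1AN and PGAM1 were called higher in some clones, EGLN3 lower in MAGI2-CKO and P4HA2 in none.

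The targeted genes were examined first as a check of the labels. CARD19, the current symbol of C9orf89, was at 4.34, 4.27 and 4.34 FPKM in the C9orf89-CKO wells and at 5.70, 7.71 and 6.27 FPKM in Non-target (log2 fold change −0.58 ± 0.10, adjusted p = 0.00098, limma), and it was also lower in RHBDD2-CKO (−0.44). RHBDD2 was at 11.2, 13.5 and 12.4 FPKM in the RHBDD2-CKO wells against 27.4, 38.1 and 34.9 FPKM in Non-target (−1.42 ± 0.14), and it was lower in MAGI2-CKO too, at 11.7, 13.8 and 16.0 FPKM (−1.27 ± 0.14). MAGI2 stayed between 0.0523 and 0.123 FPKM in every library and MLPH was at 0 in all 15, so their transcripts do not check these labels.

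Markers of HEK293T and of the other cells the study cultured were read next. Of the 6 markers of HEK293T, VIM was the most abundant at 40.1 to 87.9 FPKM, and the 6 together summed to a mean of 111 FPKM in Non-target, 130 for C9orf89-CKO, 114 for MAGI2-CKO, 173 for MLPH-CKO and 67.3 in RHBDD2-CKO. VIM was at 59.3 to 87.9 FPKM in the 3 clones other than RHBDD2-CKO, apart from 40.1 to 48.6 FPKM in Non-target, and KRT8 was at 14.7 to 16.3 FPKM in MLPH-CKO against 4.65 to 5.39 FPKM. The neurofilament NEFM was at 0 to 0.0705 FPKM in MAGI2-CKO and 0.957 to 1.89 FPKM in RHBDD2-CKO against 21.4 to 38.4 FPKM in Non-target, and NEFL was at 0.903 to 1.14 FPKM in RHBDD2-CKO and 23.2 to 35.6 FPKM in the other clones against 16.8 to 20.5 FPKM. None of the 7 myeloid markers (for U937) was tested, their sum stayed between 0.0293 and 0.416 FPKM in every library, SPI1 was on average the most abundant of them, and MPO was at 0 in all libraries. Of the 7 mesenchymal markers (for UE7T-9) only COL1A1 was tested (2.24 to 5.42 FPKM), while THY1 and COL1A2 stayed at or under 0.0261 FPKM.

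The most abundant of the 42 genes in Non-target, on the per-length FPKM scale, were 6 enzymes of glycolysis and LDHA. GAPDH had 601 ± 56.3 FPKM (mean ± SD, n = 3), TPI1 375 ± 16.6, ENO1 362 ± 33.2, PGAM1 245 ± 23.6, PKM 218 ± 11.7, LDHA 171 ± 3.19 and PGK1 120 ± 7.68. The wells of TPI1 and ENO1 overlapped, as did those of PGAM1 and PKM. ALDOA and LDHB share 42.3% and 33.4% of their exon length with other genes on the same strand, so their places in this order are uncertain. Of the regulators, VHL was at 35.8 ± 3.75 FPKM, EGLN1 at 21.3 ± 1.32, HIF1A at 17.9 ± 1.23, ARNT at 10.9 ± 0.401 and EPAS1 at 6.73 ± 0.482. CA9, a carbonic anhydrase that is a classical marker of hypoxic cells, had no fragment in 13 of the 15 libraries and 1 fragment in each of the other two, where 3 fragments would correspond to 0.092 to 0.116 FPKM. CA9 shares 38.5% of its exon length with ARHGEF39 on the opposite strand (5.24 to 7.68 FPKM), so its level is uncertain. All 42 genes together made up 0.891 ± 0.0668% of the summed FPKM in Non-target and 0.913 to 0.957% in the means of the clones.

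Against Non-target, members of the list rose and fell in every clone. The median of the list stayed near that of all genes in the clones other than RHBDD2-CKO, where it was lower. In C9orf89-CKO, 11 of the 40 tested genes were higher and 4 lower, where 12.9% of all tested genes were higher and 13.1% lower. MAGI2-CKO had 12 higher and 11 lower (17.0% and 19.1% of all genes), MLPH-CKO 14 higher and 6 lower (14.5% and 15.5%), and RHBDD2-CKO 8 higher and 8 lower (17.4% and 16.7%). As a share of the 40, the genes called in either direction were 37.5%, 57.5%, 50% and 40.0%, beside 26.0%, 36.1%, 30.1% and 34.1% of all genes. The median log2 fold change of the 40 genes was −0.019, −0.021, −0.0087 and −0.11, while that of all genes lay within 0.01 of 0 in each comparison. Of the 40, 29 were called in at least 1 clone (72.5%, against 61.5% of all genes), and 11 in none, namely VHL, EGLN1, EGLN2, BNIP3L, ANKRD37, P4HA2, PFKM, ALDOA, TPI1, GAPDH and LDHB. Rescaling every library to the same sum moved the median of all genes in RHBDD2-CKO to 0.15 and the calls over all genes there from 2813 higher and 2698 lower to 4350 and 1566. The calls of the list in that clone were then 10 higher and 4 lower, with a median of 0.047, which is below the shift of all genes. In C9orf89-CKO the same rescaling moved the calls over all genes from 2091 higher and 2119 lower to 2362 and 1472. Counts also depended on single wells: MAGI2-CKO had 7 higher without its well 2 and 6 lower without Non-target well 3, and MLPH-CKO had 8 higher without Non-target well 1 and 9 without its own well 2. Whether the calls over all genes moved alike in these fits was not tested.

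**Figure D1:**
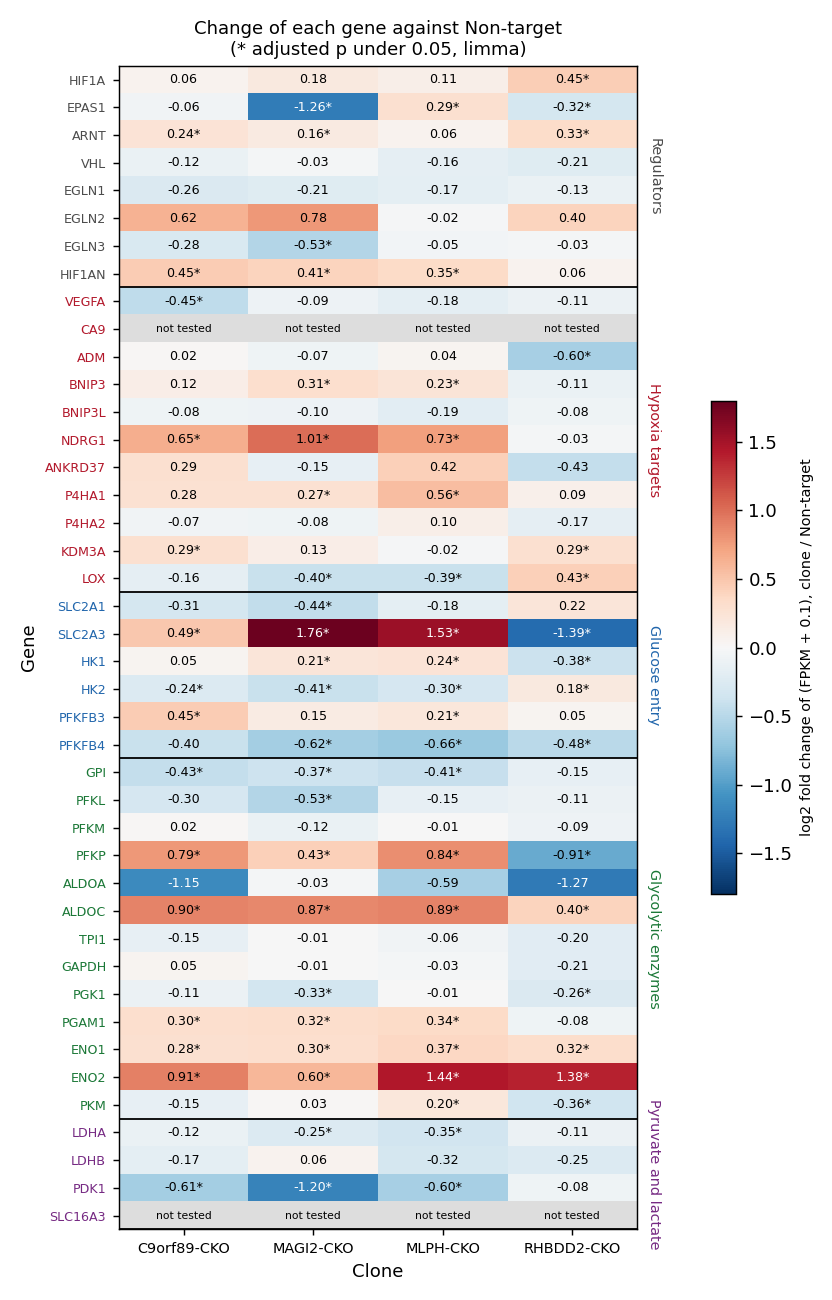
Log2 fold change of (FPKM + 0.1) of each of the 42 genes (rows, grouped by role) in each clone (columns) against Non-target, with an asterisk where the adjusted p was under 0.05. ENO1, ENO2 and ALDOC are marked and red in all 4 columns, and SLC2A3, PFKP, HK1 and HK2 have the opposite colour in RHBDD2-CKO; grey rows were not tested.

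The genes that moved the same way in all 4 clones were ENO1, ENO2 and ALDOC, all higher, which is 7.5% of the 40 against 3.39% of all genes. No member was called lower in all 4 in this fit, against 3.26% of all genes. ENO1 and ENO2 encode enolases, which make phosphoenolpyruvate, and ALDOC encodes aldolase C, which splits fructose 1,6-bisphosphate; ENO2 and ALDOC are best known from neurons. ENO2 (ENSG00000111674, chr12:6913745-6923698) was at 3.32, 3.12 and 3.50 FPKM in the Non-target wells. It was at 6.92, 6.11 and 5.89 FPKM in C9orf89-CKO, 5.08, 5.02 and 5.13 in MAGI2-CKO, 9.93, 8.34 and 9.16 in MLPH-CKO, and 8.68, 8.48 and 9.28 in RHBDD2-CKO. No well of a clone overlapped with Non-target, and the log2 fold changes were 0.91, 0.60, 1.44 and 1.38, each ± 0.08, with adjusted p of 6.6e-05 or smaller. The clones differed among themselves as well, since ENO2 was higher in MLPH-CKO and RHBDD2-CKO than in the other two (log2 differences 0.48 to 0.83).

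ALDOC (ENSG00000109107, chr17:28573115-28577264) was at 2.34, 3.20 and 3.35 FPKM in Non-target, 5.32, 6.39 and 5.02 in C9orf89-CKO, 4.96, 5.83 and 5.49 in MAGI2-CKO, 5.69, 5.67 and 5.16 in MLPH-CKO and 3.61, 4.11 and 4.01 in RHBDD2-CKO. Every well of each clone was above all Non-target wells, with log2 fold changes of 0.90, 0.87, 0.89 and 0.40, each ± 0.13. RHBDD2-CKO was the lowest of the 4 clones and was lower than each of the others (log2 differences −0.46 to −0.50). Its call against Non-target was lost without Non-target well 1 (0.25, adjusted p = 0.098), without RHBDD2-CKO well 2 (adjusted p = 0.083), without RHBDD2-CKO well 3 (adjusted p = 0.076) and in a fit of only the 6 libraries compared (adjusted p = 0.10).

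ENO1 (ENSG00000074800, chr1:8861000-8879250) was at 327, 393 and 366 FPKM in Non-target and at 410 to 487 FPKM in all 12 wells of the clones, which therefore did not overlap with Non-target. Its log2 fold changes were 0.28, 0.30, 0.37 and 0.32, each ± 0.09, and no clone differed from another. ENO1 supplied most of the enolase transcript, since ENO2 was 0.913 ± 0.112% of their summed FPKM in Non-target and 1.92 ± 0.177% in MLPH-CKO. The calls of ENO1 were lost without Non-target well 1 in C9orf89-CKO (adjusted p = 0.10), MAGI2-CKO (0.071) and RHBDD2-CKO (0.051). They were also lost in C9orf89-CKO without its well 2 (0.11), its well 3 (0.075) or Non-target well 3 (0.068), and in MAGI2-CKO without its well 2 (0.052) or well 3 (0.070). Fitted on only the 6 libraries compared, ENO1 was called in no clone (adjusted p 0.060 to 0.10), and without a filter on low values it was called in MLPH-CKO alone.

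**Figure D2:**
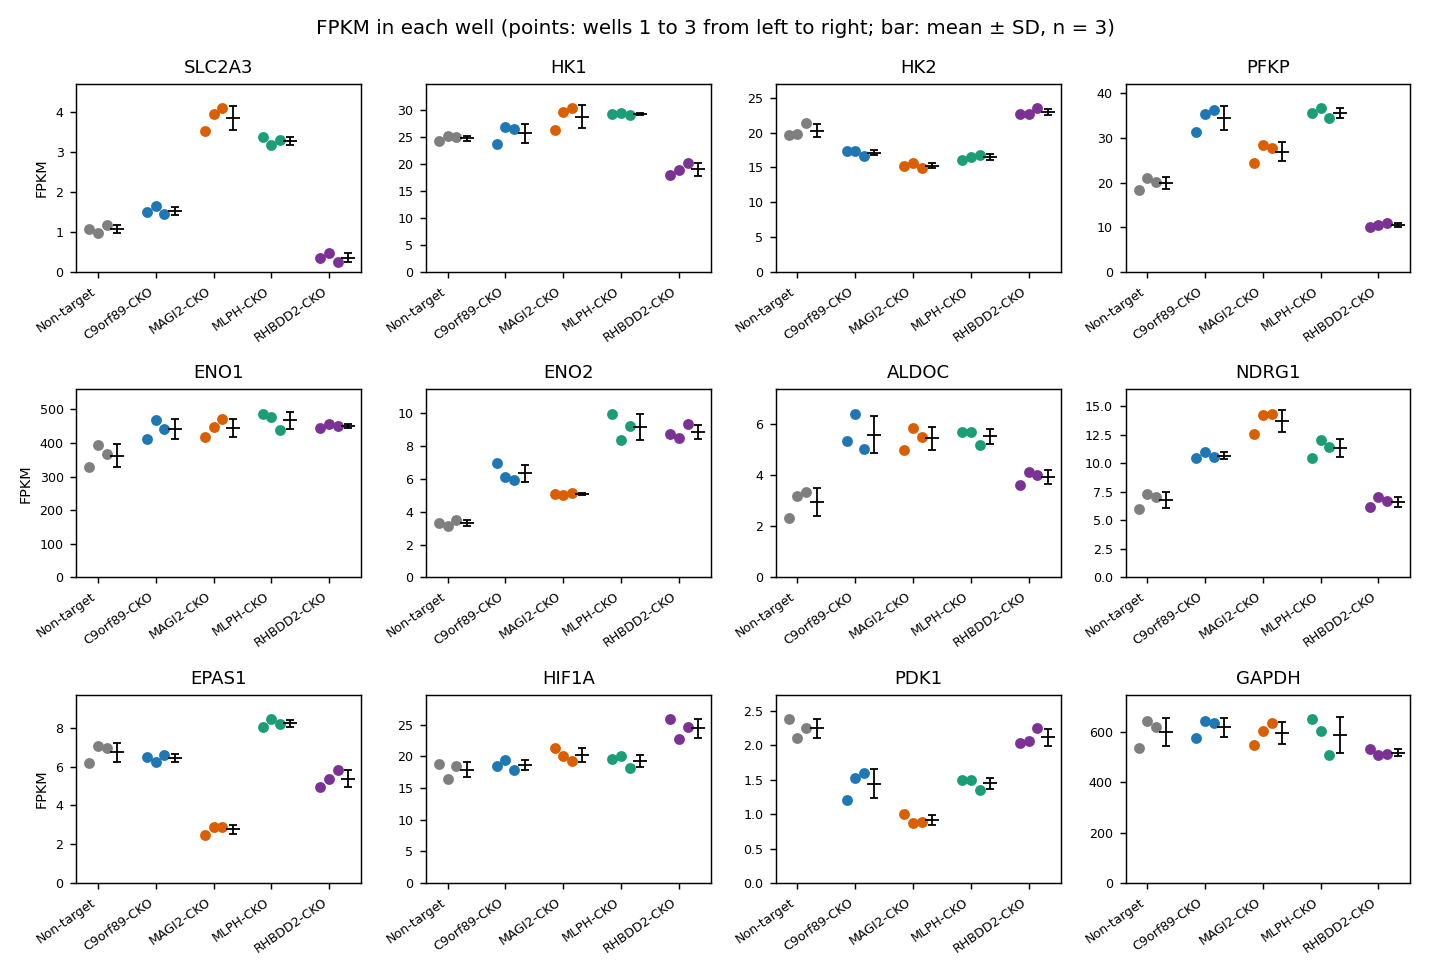
FPKM of 12 genes in each well of the 5 groups (points, wells 1 to 3 from left to right; bars, mean ± SD of the 3 wells), on axes that start at 0. ENO2 and ALDOC lie above Non-target in all clones, SLC2A3 and PFKP lie above it in 3 clones and below it in RHBDD2-CKO, EPAS1 lies lowest in MAGI2-CKO, and GAPDH overlaps with Non-target in all clones but RHBDD2-CKO.

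Of the 6 genes of glucose entry, SLC2A3, HK1 and HK2 were called in opposite directions in different clones. Over the whole list, 7 genes were higher in 1 clone and lower in another (17.5%, against 7.28% of all genes), namely SLC2A3, HK1, HK2, PFKP, PKM, EPAS1 and LOX. SLC2A3 (ENSG00000059804, chr12:7919230-7936275) encodes GLUT3, a glucose transporter of high affinity. It was at 1.08, 0.965 and 1.17 FPKM in Non-target, 1.51, 1.65 and 1.45 in C9orf89-CKO, 3.52, 3.97 and 4.10 in MAGI2-CKO, 3.38, 3.17 and 3.29 in MLPH-CKO, and 0.349, 0.470 and 0.249 in RHBDD2-CKO. These groups did not overlap with Non-target, and the log2 fold changes were 0.49, 1.76, 1.53 and −1.39, each ± 0.15. Between MAGI2-CKO and RHBDD2-CKO the difference was −3.15 ± 0.15 on the log2 scale (adjusted p = 7.65e-09). The lowest values rested on 25 to 49 fragments per library. The rise in C9orf89-CKO was lost without its well 1 (adjusted p = 0.059) or well 2 (0.094) and without Non-target well 1 (0.055) or well 2 (0.10).

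SLC2A1, which encodes the widely expressed transporter GLUT1, was at 11.3, 15.7 and 14.1 FPKM in Non-target. It was called lower in MAGI2-CKO, at 9.23, 10.2 and 10.6 FPKM (−0.44 ± 0.14, adjusted p = 0.027), a call lost without MAGI2-CKO well 1 (0.089) or well 2 (0.056) without Non-target well 2 (0.11) or well 3 (0.079), and with libraries rescaled to the same sum (0.060). The other clones had log2 fold changes of −0.31, −0.18 and 0.22 and were not called, and MAGI2-CKO did not differ past the threshold from C9orf89-CKO (−0.13) or MLPH-CKO. SLC2A3 made up 7.37 ± 1.49% of the summed FPKM of both transporters in Non-target, 12.4 ± 1.54% for C9orf89-CKO, 27.8 ± 0.161% for MAGI2-CKO, 21.5 ± 2.87% for MLPH-CKO and 2.19 ± 0.635% in RHBDD2-CKO.

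The hexokinases, which trap glucose in the cell by phosphorylating it, were called in opposite directions in MAGI2-CKO, MLPH-CKO and RHBDD2-CKO. HK1 was at 24.1, 25.1 and 24.9 FPKM in Non-target, 26.2, 29.5 and 30.3 in MAGI2-CKO, 29.1, 29.4 and 29 in MLPH-CKO and 17.8, 18.9 and 20.2 in RHBDD2-CKO (log2 fold changes 0.21, 0.24 and −0.38, each ± 0.07), while C9orf89-CKO overlapped with Non-target (0.05). HK1 lies on the long arm of chromosome 10, whose tested genes had median log2 fold changes of 0.32, 0.34, 0.35 and −0.009. Those of MAGI2-CKO and MLPH-CKO were above the rises of HK1. HK2 was at 19.6, 19.8 and 21.4 FPKM in Non-target, 17.3, 17.3 and 16.7 in C9orf89-CKO, 15.2, 15.7 and 14.9 in MAGI2-CKO, 16.1, 16.5 and 16.8 in MLPH-CKO and 22.7, 22.6 and 23.5 in RHBDD2-CKO. Every clone was apart from Non-target for HK2, with log2 fold changes of −0.24, −0.41, −0.30 and 0.18, each ± 0.05. The sum of both hexokinases was 41.9 to 45.7 FPKM in the group means, and HK1 was 54.9 ± 1.03% of it in Non-target, 59.9 ± 1.93% for C9orf89-CKO, 65.2 ± 1.79% for MAGI2-CKO, 63.9 ± 0.576% for MLPH-CKO and 45.2 ± 1.13% in RHBDD2-CKO. The call of HK1 in MAGI2-CKO was lost without its well 2 (adjusted p = 0.092) or well 3 (0.10) and without Non-target well 1 (0.073) or well 3 (0.058), in MLPH-CKO without Non-target well 1 (0.051), and that of HK2 in RHBDD2-CKO without its well 3 (0.052). With every library rescaled to the same sum, HK1 was called in no clone (adjusted p = 0.14 in MAGI2-CKO, 0.098 for MLPH-CKO and 0.086 in RHBDD2-CKO) and HK2 was not called in C9orf89-CKO (0.096), though the directions held.

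Phosphofructokinase commits glucose to glycolysis, and PFKP is its platelet-type subunit. PFKP (ENSG00000067057, chr10:3066333-3137712) was at 18.4, 21.0 and 20.3 FPKM in Non-target, 31.4, 35.5 and 36.4 in C9orf89-CKO, 24.5, 28.5 and 27.7 in MAGI2-CKO, 35.6, 36.7 and 34.5 in MLPH-CKO and 10.1, 10.6 and 11 in RHBDD2-CKO. All 4 clones were apart from Non-target, 3 above and RHBDD2-CKO below, with log2 fold changes of 0.79, 0.43, 0.84 and −0.91, each ± 0.08. The difference between RHBDD2-CKO and MLPH-CKO was −1.75 ± 0.08 (adjusted p = 4.88e-09). The muscle-type subunit PFKM was called in no clone (log2 fold changes −0.12 to 0.02), and the liver-type subunit PFKL was lower in MAGI2-CKO (−0.53 ± 0.15), which was lost without MAGI2-CKO well 1 (0.063) and without Non-target well 2 (0.063) or well 3 (0.052). PFKP was 29.9 ± 0.705% of the summed FPKM of the 3 subunits in Non-target, 45.2 ± 0.551% for C9orf89-CKO, 42.4 ± 0.678% for MAGI2-CKO, 44.9 ± 1.69% for MLPH-CKO and 19.5 ± 0.433% in RHBDD2-CKO. PFKFB3 and PFKFB4 make and remove fructose 2,6-bisphosphate, the activator of phosphofructokinase. PFKFB3 was higher in C9orf89-CKO (0.45 ± 0.07) and, less securely, in MLPH-CKO (0.21, lost without its well 2, its well 3 or Non-target well 1, adjusted p 0.084 to 0.13). PFKFB4 was at 2.02, 2.35 and 2.60 FPKM in Non-target, 1.09, 1.55 and 1.89 in MAGI2-CKO, 1.49, 1.51 and 1.28 in MLPH-CKO and 1.76, 1.52 and 1.61 in RHBDD2-CKO. It was lower in MAGI2-CKO, MLPH-CKO and RHBDD2-CKO (−0.62, −0.66 and −0.48, each ± 0.17). Its call in MAGI2-CKO was lost without that clone's well 1 (−0.42, adjusted p = 0.051) or Non-target well 3 (0.056), and the call in RHBDD2-CKO was lost in 11 of the 15 fits that left out 1 library (adjusted p up to 0.15).

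**Figure D3:**
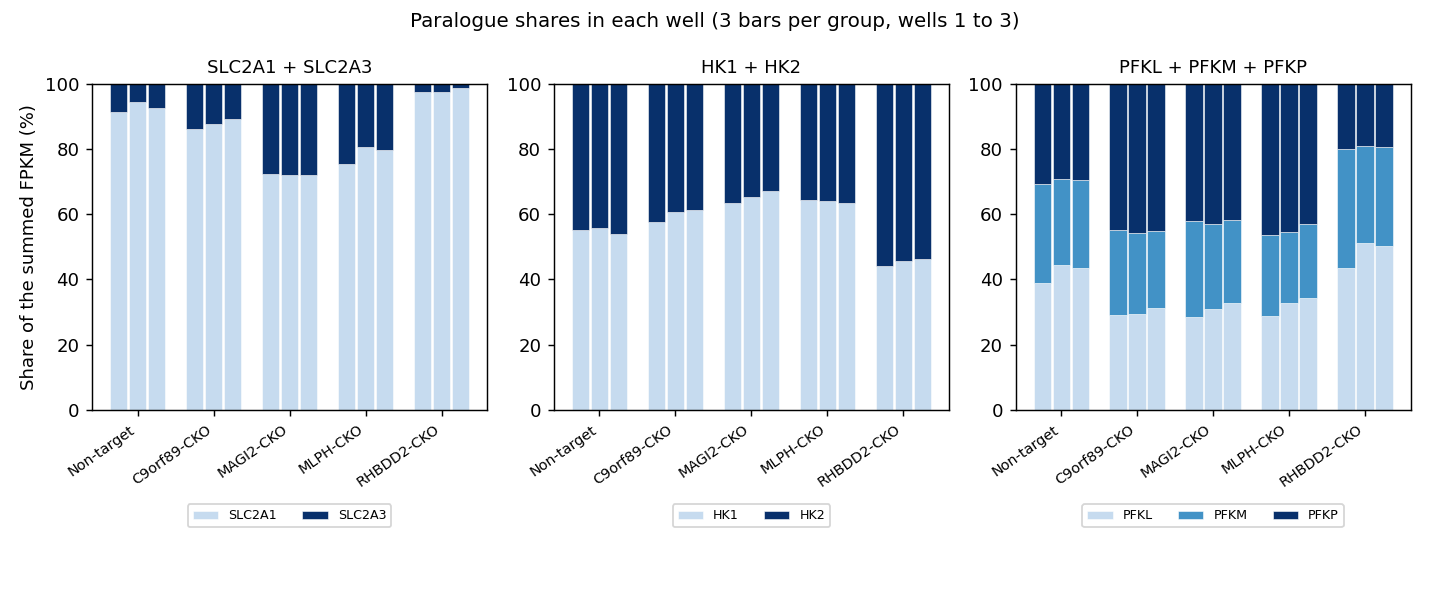
Share of each paralogue in the summed FPKM of glucose transporters, hexokinases and phosphofructokinase subunits, 1 stacked bar for each well of the 5 groups. The shares of SLC2A3, HK1 and PFKP are smaller in RHBDD2-CKO than in Non-target and larger in the other 3 clones.

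Of the 8 regulators, 2 were higher and none lower in C9orf89-CKO, 2 were higher and 2 lower in MAGI2-CKO, 2 were higher and none lower in MLPH-CKO, and 2 were higher and 1 lower in RHBDD2-CKO. That is 25% of the 8 higher in each clone and at most 25% lower, beside 12.9% to 17.4% higher and 13.1% to 19.1% lower over all genes, which with so few genes is near the background. EPAS1 (ENSG00000116016, chr2:46293667-46386703) had the widest spread of them. It was at 6.18, 7.04 and 6.98 FPKM in Non-target, 6.5, 6.21 and 6.59 in C9orf89-CKO, 2.50, 2.87 and 2.90 in MAGI2-CKO, 8.06, 8.44 and 8.19 in MLPH-CKO and 4.92, 5.36 and 5.82 in RHBDD2-CKO. MAGI2-CKO and RHBDD2-CKO lay below Non-target, MLPH-CKO above it, and C9orf89-CKO overlapped with it. The log2 fold changes were −0.06, −1.26, 0.29 and −0.32, each ± 0.08. The call in MLPH-CKO was lost without its well 2 (adjusted p = 0.053) or Non-target well 1 (0.062), and with libraries rescaled to the same sum EPAS1 was not called in MLPH-CKO (0.065) or RHBDD2-CKO (0.23).

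HIF1A was at 18.8, 16.5 and 18.4 FPKM in Non-target and at 25.9, 22.8 and 24.6 FPKM in RHBDD2-CKO, which was apart from every other group (0.45 ± 0.07, adjusted p = 0.00037). The other clones were at 17.9 to 21.4 FPKM and were not called (0.06, 0.18 and 0.11). ARNT was higher in C9orf89-CKO (0.24 ± 0.06) and RHBDD2-CKO (0.33), at 12.1, 13.7 and 13.1 FPKM and 14.3, 13.0 and 14 FPKM against 11.3, 10.5 and 10.9 FPKM, and the call in C9orf89-CKO was lost in a fit of only the 6 libraries compared (adjusted p = 0.052). Its call in MAGI2-CKO (0.16) was lost in 11 of the 15 fits that left out 1 library. HIF1AN, whose product hydroxylates the α subunits so that they no longer bind their coactivators, was higher in the 3 clones other than RHBDD2-CKO (0.45, 0.41 and 0.35, each ± 0.09) and not called in RHBDD2-CKO (0.06). Its call in MLPH-CKO was lost on only the 6 libraries compared (adjusted p = 0.053). EGLN3, itself a hypoxia target, was called lower in MAGI2-CKO (−0.53 ± 0.11). It had −0.28 in C9orf89-CKO (adjusted p = 0.079), and these clones did not differ past the threshold (−0.25). VHL was at 29.6 to 40.0 FPKM and EGLN1 at 15.6 to 22.5 FPKM over all libraries, and neither was called in any clone (log2 fold changes −0.21 to −0.03 and −0.26 to −0.13). EGLN2 was listed at 0.236 to 0.764 FPKM, but 30.6% of its exon length is shared with RAB4B-EGLN2 on the same strand, so its level is uncertain.

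Among the hypoxia targets outside glycolysis, 2 of the 10 tested were higher and 1 lower in C9orf89-CKO, 3 and 1 in MAGI2-CKO, 3 and 1 in MLPH-CKO, and 2 and 1 in RHBDD2-CKO. These are 20%, 30%, 30% and 20% higher and 10% lower in each, beside the 12.9%, 17.0%, 14.5% and 17.4% of all genes that were higher and the 13.1% to 19.1% that were lower. With so few genes, these shares are near the background. NDRG1, a stress-responsive gene, was at 6.03, 7.29 and 7.06 FPKM in Non-target, 10.5, 11 and 10.5 in C9orf89-CKO, 12.6, 14.2 and 14.4 in MAGI2-CKO, 10.5, 12.1 and 11.5 in MLPH-CKO and 6.17, 7.05 and 6.66 in RHBDD2-CKO. It was thus higher in 3 clones (0.65, 1.01 and 0.73, each ± 0.08) and overlapped with Non-target in RHBDD2-CKO (−0.03), which was lower than each of the other clones (log2 differences −0.68 to −1.04). ADM, which encodes the vasodilator peptide adrenomedullin, was at 2.45, 2.76 and 3.03 FPKM in RHBDD2-CKO against 4.22, 4.23 and 4.13 FPKM in Non-target (−0.60 ± 0.11, adjusted p = 0.0012), and its log2 fold changes in the other clones were within 0.07 of 0. LOX, which crosslinks collagen, was at 2.63, 3.07 and 3.17 FPKM in Non-target, 2.21, 2.34 and 2.09 in MAGI2-CKO, 1.95, 2.44 and 2.30 in MLPH-CKO and 3.63, 3.83 and 4.6 in RHBDD2-CKO. LOX was therefore lower in MAGI2-CKO and MLPH-CKO (−0.40 and −0.39) and higher in RHBDD2-CKO (0.43), each ± 0.11, and the lower calls were lost without Non-target well 3 (0.052 and 0.063) and, in MLPH-CKO, without its well 1 (0.060) or Non-target well 2 (0.051). In a fit of only the 6 libraries compared, LOX was called in neither RHBDD2-CKO (adjusted p = 0.053) nor MLPH-CKO (0.075).

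VEGFA, the angiogenic factor that is a textbook target of the pathway, was at 4.59, 3.85 and 3.74 FPKM in Non-target. It was called in C9orf89-CKO, at 3.97, 2.46 and 2.57 FPKM (−0.45 ± 0.14, adjusted p = 0.036), where well 1 overlapped with Non-target, and no pair of clones differed past the threshold. Leaving out C9orf89-CKO well 2 (0.15) or well 3 (0.13) or Non-target well 1 (0.12), well 2 (0.061) or well 3 (0.050) ended the call. P4HA1, a prolyl hydroxylase of collagen, was higher in MLPH-CKO (0.56 ± 0.10, 20.7 to 22.9 FPKM against 13.6 to 15.2), and KDM3A, a histone demethylase, was higher in C9orf89-CKO and RHBDD2-CKO (0.29 in both, ± 0.07). BNIP3, a mitophagy receptor, was higher in MAGI2-CKO (0.31 ± 0.08). The calls of P4HA1 in MAGI2-CKO (0.27) and BNIP3 in MLPH-CKO (0.23) were lost in 9 and 11 of the 15 fits that left out 1 library, with adjusted p up to 0.14 and 0.18. BNIP3L, P4HA2 and ANKRD37 were called in none, with log2 fold changes of −0.19 to −0.08, −0.17 to 0.10 and −0.43 to 0.42. ANKRD37 shares 35.2% of its exon length with UFSP2 on the opposite strand, and strand-specific counting is not stated.

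Of the abundant enzymes of glycolysis, GAPDH and TPI1 were called in no clone. GAPDH was at 509 to 651 FPKM over all 15 libraries (log2 fold changes 0.05, −0.01, −0.03 and −0.21, each ± 0.11) and TPI1 at 306 to 425 FPKM (−0.15, −0.01, −0.06 and −0.20, each ± 0.10). The 13 enzymes together summed to 2047 ± 159 FPKM in Non-target, 2132 ± 116 for C9orf89-CKO, 2150 ± 105 for MAGI2-CKO, 2230 ± 159 for MLPH-CKO and 1909 ± 37.5 in RHBDD2-CKO. ALDOA, whose level is uncertain, entered these sums as listed. PGAM1, a phosphoglycerate mutase, was at 219 to 264 FPKM in Non-target and higher in all clones but RHBDD2-CKO (0.30, 0.32 and 0.34, each ± 0.10, with well 1 of C9orf89-CKO within the range of Non-target), but each of these calls was lost without Non-target well 1 (adjusted p = 0.13, 0.085 and 0.067). The calls of PGAM1 were also lost without C9orf89-CKO well 2 (0.13) or well 3 (0.14), without MAGI2-CKO well 2 (0.053) or well 3 (0.069), without MLPH-CKO well 2 (0.052), and for C9orf89-CKO in 3 further fits (0.050 to 0.068). GPI, which isomerises glucose 6-phosphate, was at 44.0, 53.6 and 53.5 FPKM in Non-target, 35, 39.2 and 37.6 in C9orf89-CKO, 35.2, 40.3 and 41.0 in MAGI2-CKO, 36.1, 39.0 and 37.9 in MLPH-CKO and 41.6, 46.7 and 47.4 in RHBDD2-CKO. The 3 clones with the lower GPI did not overlap with Non-target (−0.43, −0.37 and −0.41, each ± 0.09), whereas RHBDD2-CKO did (−0.15).

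PKM, pyruvate kinase, was at 205, 229 and 219 FPKM in Non-target, 270, 238 and 240 in MLPH-CKO and 178, 166 and 163 in RHBDD2-CKO. It was higher in MLPH-CKO (0.20) and lower in RHBDD2-CKO (−0.36), each ± 0.07, and these clones differed by −0.56 ± 0.07 (adjusted p = 4.08e-05). The rise in MLPH-CKO was lost in 12 of the 15 fits that left out 1 library (adjusted p up to 0.15), and quantile normalization ended the call in RHBDD2-CKO (0.11). PGK1, phosphoglycerate kinase, was at 113, 128 and 121 FPKM in Non-target and lower in MAGI2-CKO, at 91.9, 96.5 and 97.9 FPKM (−0.33 ± 0.08). In RHBDD2-CKO it was at 105, 96.4 and 100.4 FPKM (−0.26), a call lost without its well 2 (0.084) or well 3 (0.063), without Non-target well 2 (0.099) or well 3 (0.064), with quantile normalization (0.45) and with libraries rescaled to the same sum (0.43). ALDOA was listed at 0.628 to 4.25 FPKM, and 42.3% of its exon length is shared with a second gene, AC093512.2, on the same strand, so its level and its share against ALDOC are uncertain.

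Of the 3 tested genes of pyruvate and lactate handling, 1 was lower in C9orf89-CKO, 2 for MAGI2-CKO, 2 for MLPH-CKO and none in RHBDD2-CKO, and none was higher, beside 13.1%, 19.1%, 15.5% and 16.7% of all genes that were lower. The genes that were higher made up 12.9%, 17.0%, 14.5% and 17.4% of all genes, and 3 genes are too few to set against these shares. PDK1 (ENSG00000152256, chr2:172555373-172608669) was at 2.38, 2.11 and 2.25 FPKM in Non-target, 1.20, 1.52 and 1.60 in C9orf89-CKO, 1.00, 0.873 and 0.885 in MAGI2-CKO, 1.49, 1.49 and 1.35 in MLPH-CKO and 2.03, 2.06 and 2.25 in RHBDD2-CKO. It fell by 0.61, 1.20 and 0.60 on the log2 scale in the first 3 clones, each ± 0.11, with no overlap, and was not called in RHBDD2-CKO (−0.08). LDHA, the lactate dehydrogenase subunit that favours lactate, was at 172, 167 and 173 FPKM in Non-target, 147, 141 and 142 in MAGI2-CKO and 149, 132 and 123 in MLPH-CKO (−0.25 and −0.35, each ± 0.08). The call of LDHA in MAGI2-CKO was lost without its well 2 (0.067) or well 3 (0.061) and without Non-target well 1 (0.051) or well 3 (0.065). LDHB was called in none, and 33.4% of its exon length is shared with AC010197.2 on the same strand. SLC16A3, the lactate exporter MCT4, was at 0.0507 to 0.242 FPKM in every library and was not tested.

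A second list of 70 other genes of the same pathways, 58 of them tested, was lower more often than higher. There were 4 higher and 15 lower in C9orf89-CKO, 12 and 23 in MAGI2-CKO, 4 and 20 in MLPH-CKO, and 7 and 21 in RHBDD2-CKO. The lower genes were 25.9%, 39.7%, 34.5% and 36.2% of the 58, beside 13.1%, 19.1%, 15.5% and 16.7% of all genes, and the higher ones 6.90%, 20.7%, 6.90% and 12.1%, beside 12.9%, 17.0%, 14.5% and 17.4%. Of the 58, 9 were lower in all 4 clones (15.5%, against 3.26% of all genes), namely RBX1, SIAH2, KDM4C, AK4, BHLHE40, HMOX1, PDHA1, PDHB and PDHX, and CUL2, on chromosome 10, was the 1 gene higher in all 4 (10.7% of the tested genes of that chromosome, against 3.39% of all genes). SIAH2, a ubiquitin ligase that acts on the EGLN enzymes, was the least secure of them, since its calls for C9orf89-CKO (−0.36), for MAGI2-CKO (−0.37) and for MLPH-CKO (−0.37) were lost in 11, 5 and 7 of the 15 fits that left out 1 library (adjusted p up to 0.17, 0.13 and 0.15). The call of AK4, an adenylate kinase of mitochondria, was lost in RHBDD2-CKO with libraries rescaled to the same sum (0.15). HMOX1, haem oxygenase 1, was at 37.0, 37.1 and 38.5 FPKM in Non-target, 8.66, 9.35 and 9.48 in C9orf89-CKO, 19.6, 22.6 and 23.3 in MAGI2-CKO, 12.9, 12.5 and 8.50 in MLPH-CKO and 13.5, 12.6 and 11.5 in RHBDD2-CKO. No well of a clone reached the Non-target level, and HMOX1 fell by 2.02, 0.78, 1.74 and 1.58 on the log2 scale, each ± 0.13.

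PDHA1 and PDHB encode the first enzyme of the pyruvate dehydrogenase complex, DLAT the second and DLD the third, and PDHX anchors the third. PDHB was at 31.4 to 32.7 FPKM in Non-target and 18.7 to 26.1 FPKM in the clones (−0.42, −0.61, −0.46 and −0.53, each ± 0.10). PDHA1 was at 46.7 to 49.5 FPKM in Non-target and 35.6 to 45.3 FPKM in the clones (−0.39, −0.33, −0.24 and −0.35, each ± 0.07), and PDHX at 14.8 to 15.3 against 10.1 to 13.7 FPKM (−0.22, −0.22, −0.52 and −0.17, each ± 0.05). DLAT was at 37.7, 33.3 and 35.2 FPKM in Non-target, 22.2, 21.7 and 20.5 in MAGI2-CKO and 18.6, 18.9 and 17.5 in MLPH-CKO (−0.72 and −0.95, each ± 0.06), and was not called in C9orf89-CKO (−0.09) or RHBDD2-CKO (0.12). DLD was lower in MAGI2-CKO alone (−0.81 ± 0.07). The call of PDHA1 in MLPH-CKO was lost without its well 2 (adjusted p = 0.096) or well 3 (0.083) or Non-target well 2 (0.071), and that of PDHX in RHBDD2-CKO without its well 2 (0.080), without Non-target well 2 (0.064) or well 3 (0.057), and with libraries rescaled to the same sum (0.84).

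RBX1 and CUL2 are parts of the ubiquitin ligase through which VHL removes the α subunits, together with ELOB and ELOC. RBX1 was at 36.7 to 41.7 FPKM in Non-target and 22.7 to 36.1 FPKM in the clones (−0.58, −0.47, −0.60 and −0.36, each ± 0.12), while CUL2 was at 9.15 to 9.96 FPKM in Non-target and 10.9 to 16.6 FPKM in the clones (0.69, 0.47, 0.55 and 0.26, each ± 0.08). In RHBDD2-CKO the call of RBX1 was lost in 5 of the 15 fits that left out 1 library and that of CUL2 in 4, with adjusted p up to 0.14 and 0.089. ELOB was called lower in the clones other than MAGI2-CKO (−0.24, −0.30 and −0.27) and ELOC in MAGI2-CKO (−0.35), and each of these 4 calls was lost in at least 2 of the fits that left out 1 library (adjusted p up to 0.18, 0.063, 0.087 and 0.086). KDM4C, a histone demethylase, was at 2.36 to 2.85 FPKM in Non-target and 1.02 to 1.91 FPKM in the clones (−0.58, −1.18, −0.63 and −0.44, each ± 0.09). SLC16A7, the monocarboxylate transporter MCT2, was at 0.516 to 0.935 FPKM in the 6 wells of C9orf89-CKO and MAGI2-CKO against 0.0584 to 0.142 FPKM in Non-target. The next largest rises of the second list were in ENO3, a muscle enolase, in MAGI2-CKO (1.13) and LDHC, a lactate dehydrogenase of the testis, in MLPH-CKO (1.01), and the next largest fall was in PCK2, the mitochondrial phosphoenolpyruvate carboxykinase, in RHBDD2-CKO (−1.0).

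**Figure D4:**
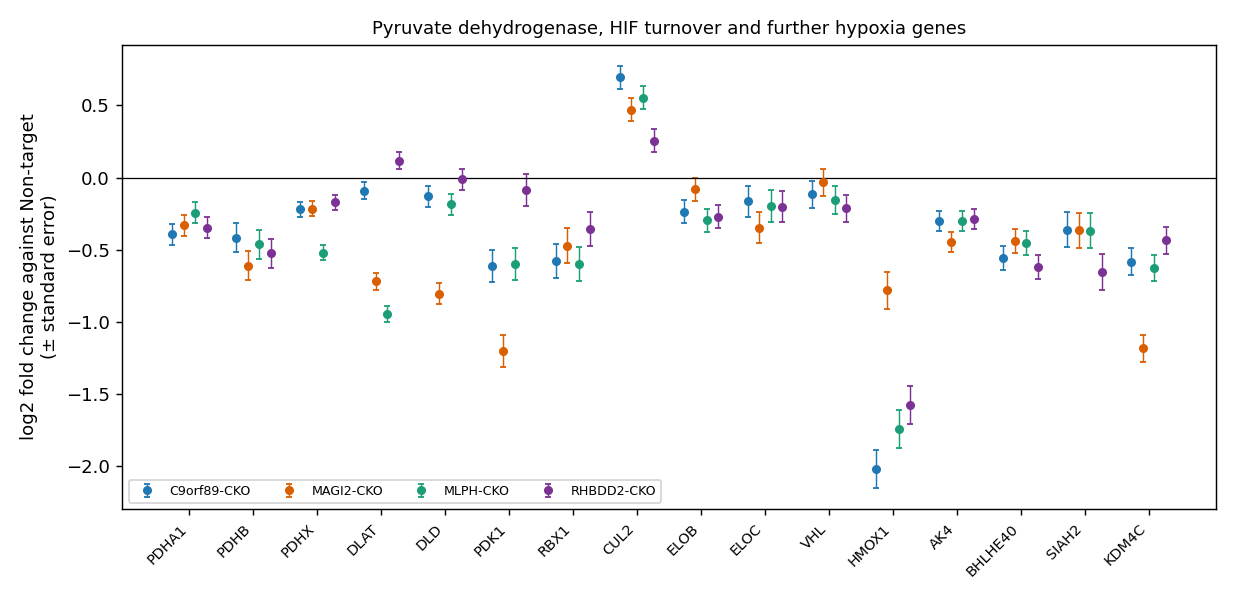
Log2 fold change against Non-target, with its standard error, of pyruvate dehydrogenase genes, PDK1, parts of the VHL ubiquitin ligase and further hypoxia genes, 1 colour for each clone. PDHA1, PDHB, PDHX, RBX1, HMOX1, AK4, BHLHE40, SIAH2 and KDM4C lie below 0 in all 4 clones and CUL2 above 0, while DLAT and DLD lie lowest in MAGI2-CKO or MLPH-CKO.

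Where the genes lie on the chromosomes was compared with their changes, using the median log2 fold change of the 100 tested genes nearest to each. The 7 genes on chromosome 10 were HIF1AN, BNIP3, P4HA1, HK1, PFKFB3, PFKP and PGAM1. Of these, 4 were higher in C9orf89-CKO, 6 for MAGI2-CKO, 7 for MLPH-CKO and none in RHBDD2-CKO, where 2 (HK1 and PFKP) were lower. All 643 tested genes of chromosome 10 had a median of 0.33, 0.33, 0.34 and 0.02 in the 4 clones, and 45.4%, 44.8%, 47.4% and 18% of them were higher. The lower ones were 4.51%, 5.29%, 2.64% and 17.0%, and 2 of 7 genes are too few to set apart from the last share. Without these 7, a split made after the values were seen, the list had 7 higher and 4 lower in C9orf89-CKO, 6 and 11 in MAGI2-CKO, 7 and 6 in MLPH-CKO and 8 and 6 in RHBDD2-CKO, of 33 tested. That is 21.2%, 18.2%, 21.2% and 24.2% higher and 12.1%, 33.3%, 18.2% and 18.2% lower, beside the 12.9%, 17.0%, 14.5% and 17.4% higher and 13.1%, 19.1%, 15.5% and 16.7% lower of all genes, so that the lower shares were near the background except in MAGI2-CKO. PFKP exceeded its neighbours by 0.41, 0.15 and 0.50 in the first 3 clones and fell short of them by −0.99 in RHBDD2-CKO. ENO1, on chromosome 1, had neighbours with a median of 0.48, 0.45, 0.44 and 0.50, above its own 0.28, 0.30, 0.37 and 0.32. The neighbours of ENO2, ALDOC, SLC2A3 and NDRG1 had medians between −0.09 and 0.08, and those of EPAS1 and PDK1 between −0.12 and 0.06. VHL had neighbours at −0.36, −0.37, −0.33 and −0.25, PFKFB4 at −0.31, −0.20, −0.21 and −0.19, and PKM at 0.26 in MAGI2-CKO and 0.32 in MLPH-CKO. Of the second-list genes lower in all 4 clones, BHLHE40 had neighbours at −0.35, −0.37, −0.32 and −0.23, PDHB at −0.35, −0.27, −0.30 and −0.24, and KDM4C at −0.44, −0.29, −0.23 and −0.21. SIAH2 had neighbours at 0.02, −0.03, 0.004 and −0.39, and PDHX at −0.06, −0.09, −0.27 and −0.02. Those of HMOX1 were at 0.03, 0.13, 0.06 and 0.30, and those of AK4, RBX1 and PDHA1 lay between −0.19 and 0.10. The neighbours of CUL2 were at 0.40, 0.32, 0.28 and 0.08, below its own changes. In MAGI2-CKO the neighbours of DLAT were at −0.56 and those of DLD at −0.49, and in MLPH-CKO those of DLAT were at −0.19. What part the neighbours' shift had in the change of a gene was not tested.

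**Figure D5:**
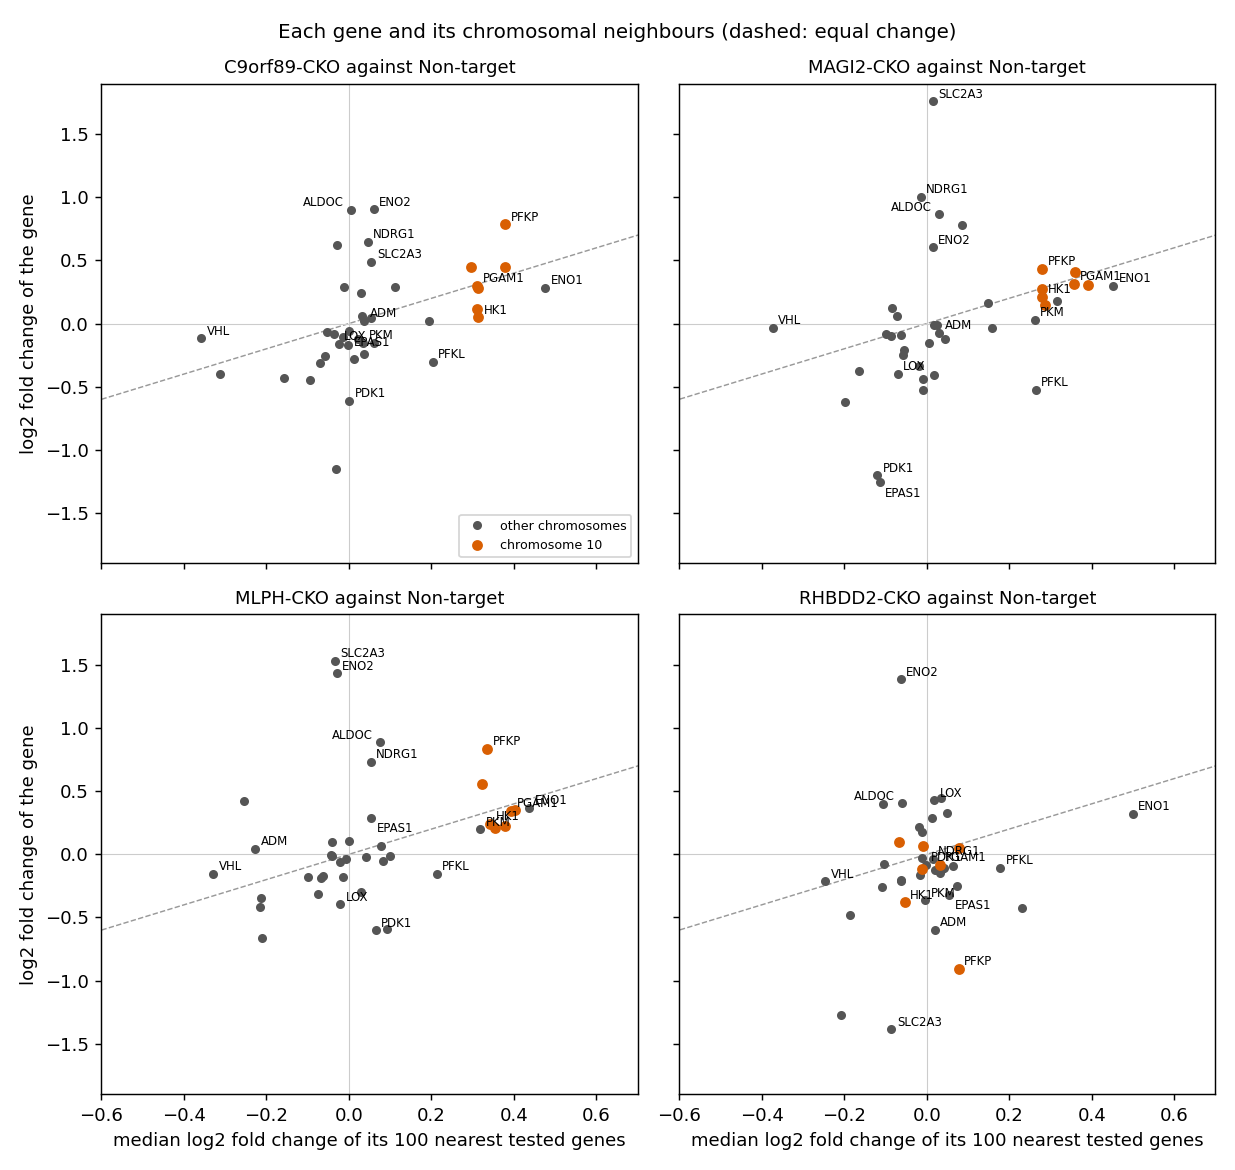
Log2 fold change of each tested gene (y axis) against the median log2 fold change of its 100 nearest tested genes on the chromosome (x axis), 1 panel for each clone, with genes of chromosome 10 in orange and a dashed line at equal change. The genes of chromosome 10 lie at about 0.3 to 0.4 on the x axis in 3 clones and near 0 in RHBDD2-CKO, while ENO2, ALDOC and SLC2A3 lie away from 0 on the y axis alone.

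Compared with each other, the clones were least alike where RHBDD2-CKO was one of the pair. RHBDD2-CKO differed in 19 of the 40 genes from C9orf89-CKO (47.5%, against 29.3% of all genes), in 20 from MAGI2-CKO (50%, against 41.6%) and in 24 from MLPH-CKO (60.0%, against 37.0%). MAGI2-CKO differed from C9orf89-CKO in 8 (20.0%, against 22.5%), MLPH-CKO from C9orf89-CKO in 6 (15%, against 14.2%) and MLPH-CKO from MAGI2-CKO in 7 (17.5%, against 21.2%). HIF1AN, NDRG1, SLC2A3, PFKP and PGAM1 were called higher in the other 3 clones and not in RHBDD2-CKO (12.5%, against 2.88% of all genes). HIF1AN, PFKP and PGAM1 of these lie on chromosome 10, where 17.7% of the tested genes had the same pattern, and PGAM1 was at the level of its neighbours' medians (0.31, 0.36 and 0.39). The neighbours of HIF1AN had medians of 0.30, 0.36 and 0.40 in the same clones, beside its own 0.45, 0.41 and 0.35. HK2, GPI and PDK1 were called lower in those 3 and not in RHBDD2-CKO (7.5%, against 3.07%). The neighbours of GPI had medians of −0.16, −0.16, −0.21 and 0.03 in the 4 clones, beside its own −0.43, −0.37, −0.41 and −0.15. Each of these 8 genes also differed between RHBDD2-CKO and at least 2 of the other clones when the clones were compared directly.

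Outside these lists, CXCL12, a chemokine that the study followed, was at 0.00938 to 0.0205 FPKM in Non-target, under the level of 3 fragments (0.0253 to 0.0319 FPKM), and at 3.06 to 3.23 FPKM in RHBDD2-CKO, 0.868 to 1.20 for MAGI2-CKO, 0.618 to 0.758 for C9orf89-CKO and 0.210 to 0.243 for MLPH-CKO, and it was called higher in each. CXCR4, which encodes its receptor, was at 34.6 to 36.4 FPKM in MAGI2-CKO against 2.38 to 3.84 FPKM in Non-target (3.53 ± 0.14). It was also called higher in RHBDD2-CKO (0.51 ± 0.14, adjusted p = 0.014), which was lost without Non-target well 2 (0.064) and on only the 6 libraries compared (0.082). The low transcript of EPO, erythropoietin, was at 0 in 2 of the 3 Non-target wells and at 0.239 to 0.741 FPKM in the 9 wells of the clones other than RHBDD2-CKO. The calls of EPO in MAGI2-CKO and MLPH-CKO were lost without Non-target well 1 (adjusted p = 0.076 and 0.081) or well 3 (0.083 and 0.088), and without MAGI2-CKO well 2 (0.090) or MLPH-CKO well 1 (0.095).

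Well 1 stood apart from wells 2 and 3 in several groups. Fragments of mitochondrial genes were 2.63% of all fragments in Non-target well 1 against 1.57% and 1.61% in its other wells, 3.10% against 1.88% and 1.87% in C9orf89-CKO, and 3.28% against 2.44% and 2.64% in MAGI2-CKO, while MLPH-CKO had 2.54%, 3.91% and 2.89% and RHBDD2-CKO 1.65%, 1.73% and 1.71%. Well 1 was the lowest of its group in all 5 groups for 6 of the 40 genes (15%, against 10.6% of all genes), which were EGLN1, NDRG1, ANKRD37, SLC2A1, GPI and PFKL. It was the highest in all 5 groups for VHL, HIF1AN and VEGFA (7.5%, against 8.69%). The part of these well differences in the results was not tested beyond leaving out each library in turn and fitting the replicate number as a term.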

How the data were processed

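RNA of 15 HEK293T libraries (5 groups of 3 wells) had been prepared with a NEBNext Ultra kit and sequenced on a NovaSeq instrument. The submitters' processing notes name HISAT2 2.0.5, featureCounts 1.5.0-p3 and DESeq2, and the genome build is not given in the sources used here. Each deposited table held 1 library, with values for 58735 Ensembl genes that were taken here as FPKM. The unit is not named in the tables. It was worked out here with exon lengths of GENCODE v29 (GRCh38), since within each library 100% of the values above 0, times the gene's length, were whole multiples of 1 step (to within 0.02 of a step plus 1e-05 of the multiple). A step was taken as 1 fragment, which also gave the depth. Positions and symbols are from GENCODE v29 and promoter sequences from RefSeq (GRCh38.p14).

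Genes with at least 0.5 FPKM in 3 libraries were tested in R 4.3.3 by limma 3.58.1, applied to log2(FPKM + 0.1) with a variance trend and all 15 libraries in 1 fit, and p-values were adjusted by Benjamini-Hochberg within each contrast at a threshold of 0.05. The script was checked on simulated data. For 3 wells against 3, a two-sided exact permutation test of single genes cannot go below p = 0.1, and was not used.

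The members and both lists were chosen with earlier results of these data known, and calls among them that earlier work had shown are no independent support. Genes are described with their wells or range where they were called in the same direction in all 4 clones, were among the 3 largest rises or falls of a clone (mean of at least 1 FPKM, wells apart from Non-target), or were called in opposite directions in clones that also differed from each other. Added to these were core genes of the pathway (HIF1A, EPAS1, ARNT, VHL, EGLN1, SLC2A1, HK2, GAPDH, PGK1, PKM, LDHA, VEGFA and CA9), CXCL12, CXCR4, EPO the targeted genes, and the 3 largest rises and falls of the second list. Other members and genes of the second list named in the text were chosen after their values were seen. The alternatives were pseudocounts of 0.01 and 1, no filter (32715 genes), a filter on the mean over libraries (1 FPKM, 12533 genes), quantile normalization, libraries rescaled to the same sum (TPM), median centring, no variance trend, only the 6 libraries compared, the replicate number as a block, processed pseudogenes added, voom weights on the recovered fragments, each library left out, and 30 neighbours in place of 100. Counting floors of 3 fragments cover counting error only.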

Additional observations from a re-analysis of the deposited data

Results flagged for a closer look

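For 7 genes the change against Non-target went in opposite directions in a pair of clones, and the clones also differed when compared directly with limma. The pair given for a gene is the one with the largest difference among its pairs called in opposite directions. As the genes were picked by calls against the same Non-target wells in the same fit, these differences largely follow from the choice. They are no separate support. The log2 difference was −3.15 ± 0.15 for SLC2A3 between RHBDD2-CKO and MAGI2-CKO (adjusted p = 7.65e-09), −1.75 ± 0.08 for PFKP between RHBDD2-CKO and MLPH-CKO (4.88e-09) and 1.55 ± 0.08 for EPAS1 between MLPH-CKO and MAGI2-CKO (5.09e-08). It was 0.83 ± 0.11 for LOX and 0.58 ± 0.05 for HK2 between RHBDD2-CKO and MAGI2-CKO (5.43e-05 and 1e-06), and −0.62 ± 0.07 for HK1 and −0.56 ± 0.07 for PKM between RHBDD2-CKO and MLPH-CKO (1.52e-05 and 4.08e-05). In the pairs given here SLC2A3, PFKP, HK1 and PKM were lower in RHBDD2-CKO and LOX and HK2 higher, and EPAS1 was also lower in RHBDD2-CKO than in MLPH-CKO (−0.61). HK1 and PFKP lie on chromosome 10, whose tested genes had a median log2 fold change of 0.34 in MLPH-CKO and 0.02 in RHBDD2-CKO.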

How the results depend on the processing

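Of the values of single genes under an alternative, 6347 kept their side of the threshold, 260 lost a call and 73 gained one. No value that was called changed sign, while 73 values called in neither fit did, the largest of them 0.23 in size. Calls were lost most often on only the 6 libraries compared (28), with libraries rescaled to the same sum (22) and with no filter (18). Beside the losses given with the genes, the 6 libraries ended calls of HK1 and PFKFB4 in MAGI2-CKO, HK2, CARD19 and RBX1 in RHBDD2-CKO, VEGFA and PGAM1 in C9orf89-CKO, and PGAM1 and PDHA1 in MLPH-CKO. With the replicate number as a block there were 9 members lower in C9orf89-CKO, 10 lower in MLPH-CKO and 15 that differed between MAGI2-CKO and C9orf89-CKO. Over all 16175 genes this block raised the same calls too, from 2119 to 3017, from 2515 to 3382 and from 3641 to 5100. EGLN1 (adjusted p 0.0010 to 0.038) and GPI were then lower in all 4 clones, and SLC2A1 was lower in 3 and higher in RHBDD2-CKO (adjusted p = 0.0077). VHL passed the threshold in 1 of all the fits in MLPH-CKO (adjusted p = 0.020, limma) and in 1 in RHBDD2-CKO (0.0033). The labels number the wells without saying what a number shares, and deviations from the group means had a median correlation of 0.0856 between wells of the same number and −0.0887 between others. The median was 0.212 for wells numbered 1, of which all 10 pairs were over 0.1, and 0.0383 and 0.0795 for those numbered 2 and 3, so that 12 of 30 same-number pairs were over 0.1, and 12 of 15 libraries correlated best with their own number. With libraries rescaled to the same sum there were 9 higher in MLPH-CKO and 4 lower in RHBDD2-CKO. Over all genes these calls went from 2350 to 2058 and from 2698 to 1566. The members' median was then 0.040 in C9orf89-CKO and 0.047 in RHBDD2-CKO, beside 0.054 and 0.15 for all genes. On only the 6 libraries compared there were 8 higher in MLPH-CKO, 4 higher in RHBDD2-CKO and 3 that differed between MLPH-CKO and C9orf89-CKO. Fewer of all tested genes were called in these fits as well. MLPH-CKO had 1769 higher genes, where the fit of all 15 libraries had 2350, and RHBDD2-CKO had 2083 in place of 2813. Between MLPH-CKO and C9orf89-CKO, 1275 genes differed in place of 2303. The members' median in C9orf89-CKO was 0.023 with no filter and −0.066 at a mean of at least 1 FPKM. Quantile normalization gave medians of 0.025 for MLPH-CKO and −0.031 for RHBDD2-CKO, and median centring gave −0.12 in RHBDD2-CKO. The cause of these changes was not tested.

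Leaving out each library in turn gave 9 to 12 higher and 3 to 5 lower members in C9orf89-CKO, 7 to 13 and 6 to 11 in MAGI2-CKO, 8 to 14 and 5 to 7 for MLPH-CKO, and 6 to 8 and 6 to 9 for RHBDD2-CKO. The medians ranged from −0.032 to 0.014, −0.0238 to 0.0221, −0.0087 to 0.030 and −0.11 to −0.087 in the same order. The members that differed were 7 to 10 between MAGI2-CKO and C9orf89-CKO, 5 to 8 between MLPH-CKO and C9orf89-CKO, 15 to 20 between RHBDD2-CKO and C9orf89-CKO, 6 to 8 between MLPH-CKO and MAGI2-CKO, 18 to 21 between RHBDD2-CKO and MAGI2-CKO, and 18 to 24 between RHBDD2-CKO and MLPH-CKO. The counts furthest from those reported were without MAGI2-CKO replicate 2 (7 higher), Non-target replicate 3 (6 lower in MAGI2-CKO), Non-target replicate 1 (8 higher in MLPH-CKO) and MLPH-CKO replicate 2 (9 higher). These counts of members were not compared with those over all genes in the same fits. Of the descriptive values compared under an alternative, 117 moved by more than the spread between wells and 333 did not. Medians of 30 in place of 100 neighbours were only part of these values. Depth limited CA9, CXCL12 in Non-target, EPO and MAGI2, which rested on few fragments.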
